A study of Mus musculus with 75 samples.

Results

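The diet response of inguinal white adipose tissue (iWAT), the subcutaneous fat pad of the groin, was described in the mouse line labelled C57n:C3Hmt. This mitochondrial-nuclear exchange line carries the nuclear genome of C57BL6/J and the mitochondrial genome of C3H/HeN. The 8 libraries with the tissue label for inguinal fat and this genotype label were taken, of 30 inguinal libraries and 75 in the series, which covers 4 combinations of nuclear and mitochondrial genome. Of these, 4 came from animals kept on chow and 4 from animals moved from chow to a high-fat diet (HFD) at week 6 of age, and per the labels tissue was collected at weeks 12 to 13. All 8 animals carry the same exchanged genome combination, so genotype does not differ between the diets, and each library carries its own animal number. The C57 wt line (C57BL6/J with its own mitochondrial genome, 4 chow and 4 HFD libraries on the same schedule) serves below as the reference for how far the response is particular to the exchange line. Diet and sequencing run coincide: all 4 chow libraries carry 1 run code in their titles, HFD replicates 1 and 2 another and HFD replicates 3 and 4 a further one. No run holds both diets, so no within-run diet value exists and the effects of diet and run cannot be told apart.

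Inguinal fat stores triglyceride in white adipocytes and can also hold beige adipocytes, which contain many mitochondria and dissipate energy as heat through uncoupling protein 1 (Ucp1). White adipocytes make part of their fatty acids from carbohydrate by de novo lipogenesis, a pathway that high-fat feeding is known to lower. The pad surrounds a lymph node and lies beside skeletal muscle of the hind limb, so RNA of both tissues can enter a dissected sample. In obesity, fat pads are known to gain macrophages and extracellular matrix.

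Total expected counts were 21834483 to 25573115 in the chow libraries and 20054370 to 25748788 in the HFD libraries. Values of single libraries are given below for replicates 1 to 4 in that order. The libraries differed in what tissue they held. Adipoq, the adipocyte hormone adiponectin, was at 4185, 1664, 2094 and 1886 CPM on chow and 6648, 2812, 3313 and 4248 CPM on HFD, where CPM are counts per 1e6 scaled by edgeR's TMM factors. Fabp4, the adipocyte fatty acid binding protein, lay between 9286 and 26531 CPM in all 8 libraries, so the adipocyte label was met in each. Skin or mammary epithelium was near absent, with Krt5 and Krt14 at most 0.121 CPM. The summed CPM of 33 lymphocyte and lymph node genes was 60.8, 3078, 2666 and 2201 on chow and 208, 168, 1393 and 249 on HFD. Glycam1, a secreted mucin of lymph node vessels, was at 0 CPM in chow replicate 1, 53.4 to 151 CPM in the other 3 chow libraries and 1.95 to 39.2 CPM on HFD. The summed CPM of 21 fast muscle genes was 4755, 85.2, 85.8 and 104 on chow and 4400.0, 31528, 5361 and 726 on HFD. Chow replicate 1 was thus low in lymph node RNA and high in muscle RNA, as the HFD libraries other than replicate 3 were, whereas the other 3 chow libraries were the reverse. HFD replicate 3 held intermediate lymph node RNA, and HFD replicate 2 the most muscle RNA. Over 16884 genes, the log2 CPM of chow replicate 1 correlated at 0.891 to 0.912 with the other chow libraries and at 0.937 to 0.958 with the HFD libraries. The other 3 chow libraries correlated at 0.974 to 0.982 with each other; these are correlations across genes, which are not independent replicates. The diet label of chow replicate 1 was not checked here, and every chow mean and fold change includes this library unless it is said to be left out. Red cell genes were highest in chow replicate 3, where Hbb-b1, the beta globin, reached 40149 CPM.

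**Figure D1:**
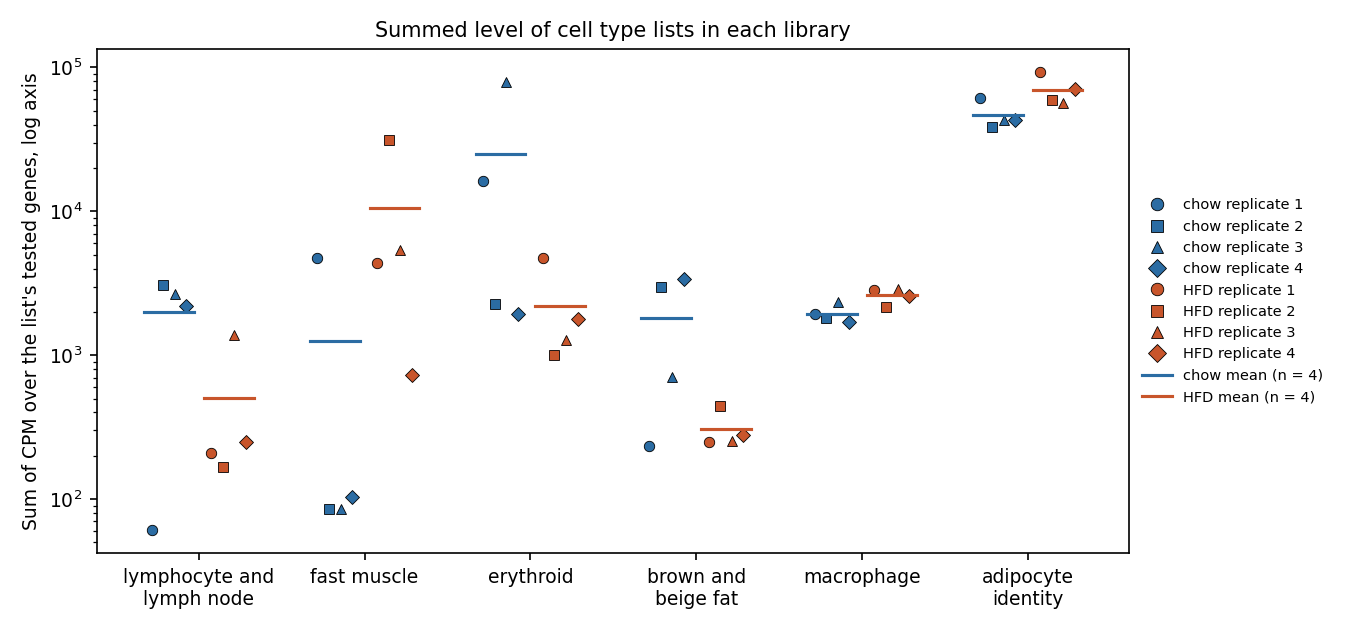
Sum of CPM over the tested genes of 6 cell type lists (log axis) in each chow (blue) and HFD (orange) library, with symbols for replicates and lines for group means (n = 4). Chow replicate 1 (circle) sits with the HFD libraries for lymph node, fast muscle and brown and beige fat genes, with lymphocyte genes at 60.8 CPM against 2201 to 3078 in the other chow libraries.

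With edgeR's quasi-likelihood test and Benjamini-Hochberg adjustment over 16884 genes, 2789 genes were called at an adjusted p under 0.05, or 16.5% of those tested. The spread in this fit was estimated from all 30 inguinal libraries; fitted on the 8 libraries alone, edgeR called 0 genes (lowest adjusted p 0.052, 3849 at an unadjusted p under 0.05) and DESeq2 2172. Below, called refers to the fit of 30 libraries unless another is named. Of these 2789 genes, 1630 were higher on HFD (9.65%) and 1159 lower (6.86%). The median absolute log2 fold change of the called genes was 0.747, and 822 changed at least 2-fold, 344 up and 478 down. For 1782 called genes (10.6% of those tested) the 4 HFD and 4 chow libraries did not overlap in CPM. The number of calls depended on single libraries: it was 4233 (25.1%, of which 15.2% higher and 9.83% lower) without chow replicate 1, 1398 without chow replicate 2, 1785 without chow replicate 3, 1651 without chow replicate 4 and 1644 without HFD replicate 4. With the mean log2 CPM of the lymphocyte and fast muscle genes as covariates, 3264 genes were called (19.3%).

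Direction followed base composition. The exons of genes called higher had a median G+C content of 43.3%, those of genes called lower 56.5% and those of genes not called 50.3%. After each library's trend on exonic G+C content and length was removed (called GC-corrected below), 376 of 14426 genes were called, or 2.61%, with 167 higher (1.16%) and 209 lower (1.45%). Of 2580 called genes with a G+C value, 2484 kept their sign, and 299 were called in both analyses in the same direction. The median absolute log2 fold change of the 2580 went from 0.727 to 0.411. GC-corrected values are given beside most groups and genes with calls. Other library measures also differed between these chow and HFD libraries. Ribosomal reads were 1.31 to 1.95% on chow and 0.43 to 0.77% on HFD. Mean insert lengths were 152.7 to 158.2 bases on chow and 143.4 to 148.5 bases on HFD. Neither measure overlapped. Over all inguinal libraries, mean inserts were 152.7 to 161.3 bases on chow and 137.1 to 161.8 bases on HFD. Both measures also varied between lines within a run. C57 wt HFD replicate 4, in the run of HFD replicates 3 and 4, had 8.64% ribosomal reads. C57 wt HFD replicate 1, in the run of HFD replicates 1 and 2, had a mean insert of 158.2 bases. Sequencing run and diet cannot be told apart in these measures or in the G+C trend.

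**Figure D2:**
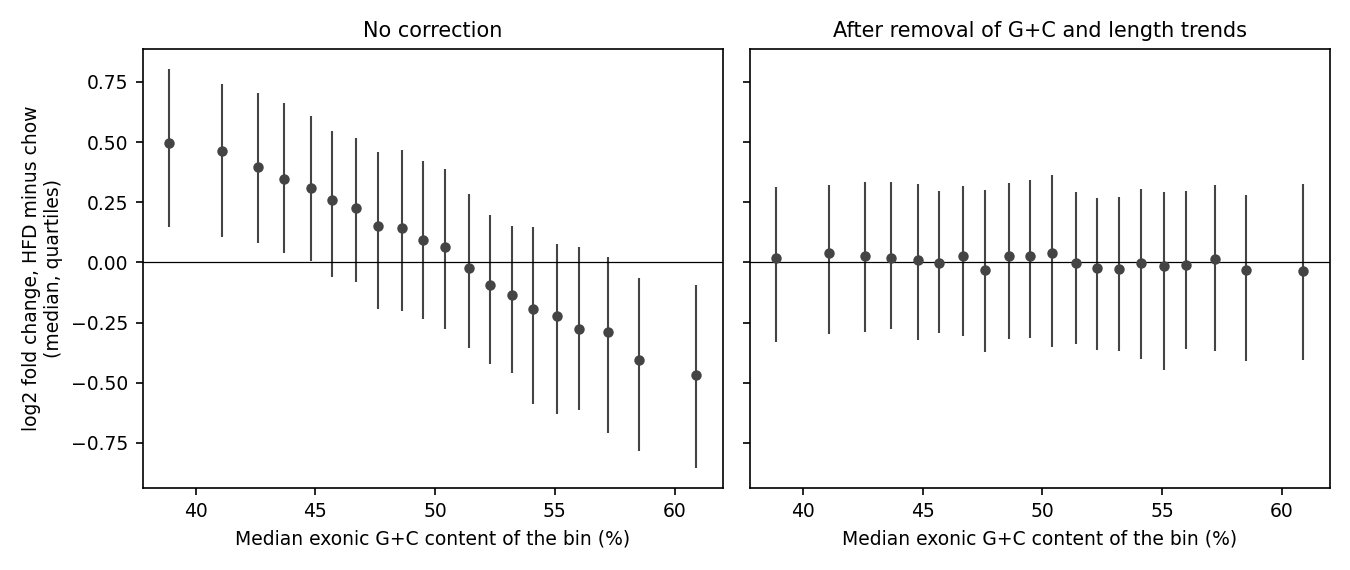
Median log2 fold change of HFD minus chow (points; bars, quartiles) in 20 bins of genes ordered by exonic G+C content in percent, without correction (left) and after removal of each library's G+C and length trends (right). The uncorrected median falls from 0.496 in the lowest bin to -0.467 in the highest, and after correction all bins lie between -0.037 and 0.040.

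Of 22 tested genes of brown and beige fat, 8 were called lower and 0 higher (Ucp1, Cidea, Cox8b, Cox7a1, Elovl3, Acot11, Cpt1b and Pank1), 36.4% against 6.86% of all genes called lower, with 5 members above 0 and a median log2 fold change of -1.31. GC-corrected, 5 were called lower, and 7 were with the lymphocyte and muscle covariates. Ucp1 (chr8:85814247-85822355, mm9) was at 0.867, 999, 151 and 1170.1 CPM on chow and 0.967, 8.32, 1.9 and 1.81 CPM on HFD. Chow replicates 2, 3 and 4 thus exceeded every HFD library by far, while chow replicate 1 lay below all 4 HFD libraries. The log2 fold change was -7.47 ± 1.61 (SE), with an adjusted p of 0.00314, and -7.64 with 0.0184 after GC correction. Acot11, an acyl-CoA thioesterase of thermogenic fat also known as BFIT (chr4:106417160-106477603), was at 2.42, 215, 25.1 and 218 CPM on chow and 2.54, 4.04, 3.28 and 2.62 CPM on HFD. It fell by 5.20 ± 1.06 on the log2 scale (adjusted p = 0.00188, GC-corrected 0.0157). Elovl3, which elongates saturated fatty acids in active brown and beige fat, was at 0.137, 69.5, 8.24 and 59.9 CPM on chow and 1.33, 0, 1.17 and 0.0503 CPM on HFD and had a log2 fold change of -5.74 ± 1.25 (adjusted p = 0.00336, GC-corrected 0.016). Cidea, a lipid droplet protein of thermogenic adipocytes, was at 20.1, 669.7, 164 and 679 CPM on chow and 38, 51.2, 45.1 and 45.1 CPM on HFD. In these 4 genes the order of the chow libraries was alike: replicates 2 and 4 high, replicate 3 lower and replicate 1 within the HFD range or below it. The log2 fold change of Cidea was -3.09 ± 0.69 (adjusted p = 0.00423, GC-corrected 0.0306). All 4 stayed called without any single library, Ucp1 with a log2 fold change of -7.89 without chow replicate 1. The list's count of lower genes was 10 without chow replicate 1, 5 without chow replicate 2 or HFD replicate 4 and 4 without chow replicate 4. The 3 chow libraries with high Ucp1 are those with lymph node RNA and little muscle RNA. HFD replicate 3, with lymphocyte and lymph node genes at 1393 CPM, had Ucp1 at 1.9 CPM. The link of Ucp1 to either tissue was not tested. Zic1, a marker of classical brown fat, was at most 0.151 CPM in all 8 libraries. In bulk tissue, fewer beige cells and less RNA per cell cannot be told apart.

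**Figure D3:**
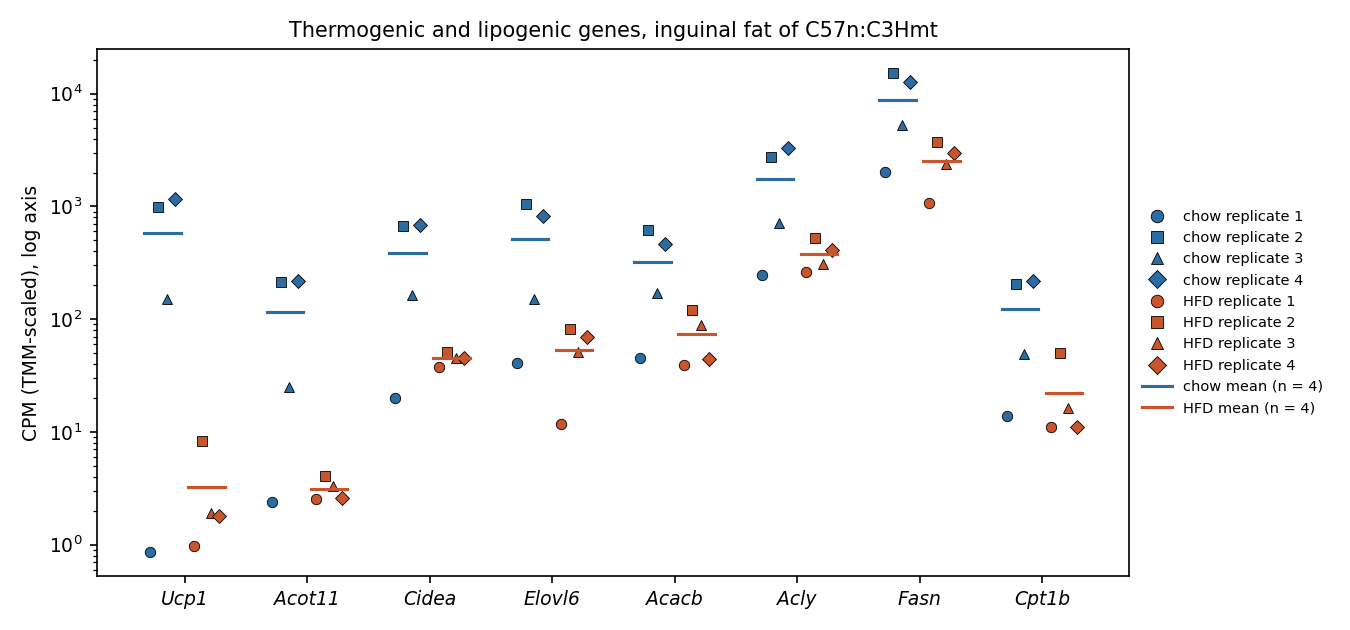
CPM (TMM-scaled, log axis) of 8 thermogenic and lipogenic genes in each chow (blue) and HFD (orange) library of the C57n:C3Hmt line, with symbols for replicates and lines for group means (n = 4). Chow replicates 2 and 4 stand highest in each gene, and chow replicate 1 lies within the range of the HFD libraries or below it, as for Ucp1 at 0.867 CPM against 0.967 to 8.32 on HFD.

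In de novo lipogenesis, of 21 tested members 9 were called lower and 0 higher (Acly, Acaca, Acacb, Fasn, Elovl3, Elovl6, Mlxipl, Slc25a1 and Tkt), 42.9% against 6.86% of all genes called lower, and the median log2 fold change was -1.17. GC-corrected, 4 were called lower, and 5 were with the lymphocyte and muscle covariates. The summed level of the list was 34975, 89915, 42318 and 89143 CPM on chow and 41485, 43257, 35444 and 39284 CPM on HFD, so that chow replicates 2 and 4 were above the HFD range and chow replicates 1 and 3 were not. The count lower was 12 without chow replicate 1, 3 without chow replicate 2, 4 without chow replicate 4, 5 without HFD replicate 3 and 6 without HFD replicate 1 or 4.

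Stretches around the start sites of 3 of these genes are shown because they span a regulator and enzymes of the pathway's first and last parts: Mlxipl (ChREBP, a carbohydrate-responsive transcription factor known to act on lipogenic genes), Acly (ATP citrate lyase, which makes cytosolic acetyl-CoA) and Fasn (fatty acid synthase). They are RefSeq promoters of build GRCm38.p6, 250 bases before to 50 after the start, 5′ to 3′ on the gene's strand. Capitals mark CCAAT (the box that NF-Y is known to bind), CACGTG (an E-box) and TCACNCCAC (a sterol regulatory element), each searched on both strands.
Fasn, chr11:120824498-120824797, minus strand: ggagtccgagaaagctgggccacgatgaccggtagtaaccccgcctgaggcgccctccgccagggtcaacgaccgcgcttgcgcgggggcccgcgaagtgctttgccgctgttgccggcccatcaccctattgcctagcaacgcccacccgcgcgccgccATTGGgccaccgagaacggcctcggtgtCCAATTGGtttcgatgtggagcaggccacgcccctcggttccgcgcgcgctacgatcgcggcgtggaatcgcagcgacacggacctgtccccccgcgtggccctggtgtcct.
Acly, chr11:100527951-100528250, minus strand: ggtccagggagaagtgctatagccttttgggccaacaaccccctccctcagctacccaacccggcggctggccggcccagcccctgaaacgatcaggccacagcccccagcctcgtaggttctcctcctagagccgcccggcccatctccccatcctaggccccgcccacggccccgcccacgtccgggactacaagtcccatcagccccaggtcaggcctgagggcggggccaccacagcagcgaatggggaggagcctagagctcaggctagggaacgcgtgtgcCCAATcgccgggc.
Mlxipl upstream start, chr5:135089640-135089939, plus strand: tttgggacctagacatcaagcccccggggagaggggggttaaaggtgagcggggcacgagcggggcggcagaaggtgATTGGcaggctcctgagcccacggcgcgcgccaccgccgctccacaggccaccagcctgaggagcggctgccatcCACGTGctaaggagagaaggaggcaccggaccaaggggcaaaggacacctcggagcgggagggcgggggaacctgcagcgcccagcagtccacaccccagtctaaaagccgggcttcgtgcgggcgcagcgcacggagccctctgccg.
Mlxipl downstream start, chr5:135106641-135106940, plus strand: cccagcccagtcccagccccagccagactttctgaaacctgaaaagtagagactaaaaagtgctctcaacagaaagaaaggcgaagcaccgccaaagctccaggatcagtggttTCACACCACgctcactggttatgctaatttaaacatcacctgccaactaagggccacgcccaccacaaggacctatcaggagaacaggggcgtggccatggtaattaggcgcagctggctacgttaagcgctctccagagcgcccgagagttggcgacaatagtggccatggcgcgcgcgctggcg.
Of the 9 called genes, 8 matched a promoter by symbol. CCAAT was found in 5 of the 8 (Acly, Acacb, Fasn, Mlxipl and Slc25a1) and in 37.4% of all 32851 promoters in the table. CACGTG was found in 2 of the 8 (Mlxipl and Slc25a1) and in 7.15% of all, and TCACNCCAC in 1 (Mlxipl) and in 1.24% of all. The 8 were counted by gene over any start site, as for the 2 of Mlxipl, whereas the shares of all were counted by promoter. A match describes the letters only, and no binding was measured.

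The Mlxipl gene (chr5:135582761-135614254, mm9) was at 50.8, 144, 68.5 and 189 CPM on chow and 30.8, 72.3, 31.6 and 24.6 CPM on HFD. The groups overlapped, since HFD replicate 2 exceeded chow replicates 1 and 3. Its log2 fold change was -1.51 ± 0.46 (adjusted p = 0.0255, GC-corrected 0.0885), and the call was lost without any of chow replicates 2 and 4 and HFD replicates 1, 3 and 4 (highest adjusted p = 0.0958). Acly (chr11:100337667-100389314) was at 247, 2725, 708.8 and 3279 CPM on chow and 261, 528, 310.4 and 407 CPM on HFD, so that chow replicate 1 lay below all HFD libraries and the other 3 above them. It had a log2 fold change of -2.21 ± 0.55 (adjusted p = 0.00876, GC-corrected 0.0366) and stayed called without any single library, but not with the lymphocyte and muscle covariates (adjusted p = 0.0511). Acacb, the mitochondrial acetyl-CoA carboxylase whose malonyl-CoA restrains fatty acid oxidation (chr5:114596544-114700770), was at 45.6, 615, 172 and 461 CPM on chow and 38.9, 121, 88.5 and 44.8 CPM on HFD, with a log2 fold change of -2.14 ± 0.57 (adjusted p = 0.0123, GC-corrected 0.0455). Its call was lost without chow replicate 2 (adjusted p = 0.0653). Fasn (chr11:120667254-120685492) reached 2040.0, 15205, 5234 and 12764 CPM on chow, against 1064, 3712, 2387 and 2958 CPM on HFD. The log2 fold change of Fasn was -1.80 ± 0.57 (adjusted p = 0.033, GC-corrected 0.0923), and the call was lost without any of chow replicates 2 and 4 and HFD replicates 1, 3 and 4 (highest adjusted p = 0.121). Elovl6, which extends palmitate to stearate (chr3:129235304-129341413), was at 40.8, 1061, 153 and 817 CPM on chow and 11.7, 81.6, 51.6 and 69.8 CPM on HFD. It fell by 3.27 ± 0.97 on the log2 scale (adjusted p = 0.0225, GC-corrected 0.0404), with the call lost without any of chow replicates 2 and 4 and HFD replicate 1 (highest adjusted p = 0.0811). Tkt, transketolase of the pentose phosphate pathway, was at 482, 3215, 1042 and 3175 CPM on chow and 504.4, 663, 531 and 638 CPM on HFD, with a log2 fold change of -1.76 ± 0.43 (adjusted p = 0.0071, GC-corrected 0.0501), and stayed called without any single library. Srebf1, which encodes the insulin-responsive lipogenic factor SREBP-1, did not pass the test, at a log2 fold change of -0.42 ± 0.24 (adjusted p = 0.234). Thrsp, a lipogenic gene regulated by thyroid hormone, was at 445, 2268, 977 and 3145 CPM on chow and 1207, 827, 747 and 683 CPM on HFD and was not called (log2 fold change -0.98 ± 0.50, adjusted p = 0.175), but was called without chow replicate 1 (-1.30, adjusted p = 0.0461). Of 23 tested genes of cholesterol synthesis edgeR and DESeq2 each called 0, with 1 higher and 4 lower at an unadjusted p under 0.05 in edgeR and a median log2 fold change of -0.241. EdgeR called 2 of them lower without chow replicate 1 and 1 without HFD replicate 4.

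Mitochondrial genes showed few calls, nearly all of them lower. For fatty acid oxidation, 4 of 24 tested genes were called lower (Cpt1b, Acadvl, Hadha and Acaa2) and 0 higher, 16.7% against 6.86% of all genes called lower, with 1 lower GC-corrected (Hadha) and 1 with the lymphocyte and muscle covariates. The count lower was 6 without chow replicate 1, 2 without HFD replicate 1 or 4 and 0 without chow replicate 2 or 4. Cpt1b, the carnitine palmitoyltransferase of muscle and brown fat (chr15:89246836-89256294), was at 14, 206, 48.9 and 219 CPM on chow and 11, 49.99, 16.5 and 11.1 CPM on HFD. The highest HFD value belonged to replicate 2, the library with the most muscle RNA, whose part in it was not tested. The log2 fold change of Cpt1b was -2.46 ± 0.71 (adjusted p = 0.0204, GC-corrected 0.0782). Its call was lost without any of chow replicates 2 and 4 and HFD replicates 1 and 4 (highest adjusted p = 0.0708). Of 36 complex I genes 2 were called lower (Ndufv1 and Ndufa10), of 37 genes of complexes II to V 2 (Uqcrc1 and Atp5d) and of 75 mitochondrial ribosome genes 1 (Mrpl38), shares of 1.33 to 5.56% that are below the 6.86% of all genes. GC-corrected, edgeR called 0 complex I genes (9 lower at an unadjusted p under 0.05), 1 of complexes II to V (Uqcrh) and 2 ribosomal ones (Mrpl24 and Mrps9), all lower. The complex I count lower was 12 without HFD replicate 1, 1 without HFD replicate 4 and 0 without chow replicate 2 or 4. For complexes II to V it was 10 without HFD replicate 1, 5 without chow replicate 1, 4 without chow replicate 3, 1 without HFD replicate 2, 3 or 4 and 0 without chow replicate 2 or 4. The ribosomal count was 9 without HFD replicate 1 and 3 without chow replicate 1 or 3. HFD replicate 1 held the highest summed level of complex I genes among the HFD libraries, at 7110 CPM against 3557 to 4396. Uqcrc1, a core subunit of complex III, was at 273, 655, 287 and 677 CPM on chow and 264, 294, 209.8 and 249 CPM on HFD, with a log2 fold change of -0.90 ± 0.26 (adjusted p = 0.0182, GC-corrected 0.175; without chow replicate 2, 0.068; without chow replicate 4, 0.0658).

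The genome that was exchanged is read through 3 measured mitochondrial transcripts, of which edgeR called 0, with 1 at an unadjusted p under 0.05, and DESeq2 1. These were mt-Nd4 of complex I, Cox2 of complex IV and Atpase6 of complex V. Their summed level was 27713, 78176, 39141 and 94101 CPM on chow and 58438, 46515, 31427 and 41637 CPM on HFD, so the chow libraries spanned the whole HFD range. The log2 fold changes were -0.05 ± 0.29 for mt-Nd4 (adjusted p = 0.916), -0.76 ± 0.32 for Cox2 (0.102) and -0.42 ± 0.30 for Atpase6 (0.346). GC-corrected, mt-Nd4, the 1 of the 3 with a G+C value, was at -0.68 (adjusted p = 0.215, unadjusted p under 0.05). Without chow replicate 1, the library with the lowest sum, Cox2 was called at -1.02 (adjusted p = 0.0146). Among 23 genes of mtDNA maintenance and mitochondrial biogenesis 5 were called lower (Polrmt, Polg, Peo1, Esrra and Ppargc1b) and 1 higher (Gabpa). The share called either way was 26.1% against 16.5% of all genes. GC-corrected, edgeR called 0 (7 lower at an unadjusted p under 0.05). With the covariates 3 were called lower, as they were without chow replicate 2, chow replicate 4 or HFD replicate 4. Polrmt, the mitochondrial RNA polymerase (chr10:79198868-79209326), was at 23.1, 31.4, 25.3 and 33.2 CPM on chow and 12, 17.7, 15 and 16.8 CPM on HFD, and the groups did not overlap. Its log2 fold change was -0.88 ± 0.14 (adjusted p = 0.000168) and stayed called without any single library, but was -0.41 with an adjusted p of 0.1 after GC correction. Esrra, a nuclear receptor that activates oxidative genes, was at 44.9, 69.2, 51.7 and 76.9 CPM on chow and 33.1, 39.1, 28 and 32.6 CPM on HFD, with a log2 fold change of -0.87 ± 0.20 (adjusted p = 0.00515, GC-corrected 0.238). Nnt, the nicotinamide nucleotide transhydrogenase of the inner membrane, was at 11.5, 12.4, 12.7 and 9.43 CPM on chow and 16, 13.7, 16.5 and 13.7 CPM on HFD; the groups did not overlap, yet the difference of 0.38 ± 0.21 was not called (adjusted p = 0.211).

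Adipocyte genes were at high levels on both diets, and few were called. Of 21 adipocyte identity genes 2 were called higher (Car3 and Acvr1c) and 0 lower, 9.52% against 9.65% of all genes called higher, with 4 called with the covariates. GC-corrected, edgeR called 0 (5 higher at an unadjusted p under 0.05). The count higher was 5 without chow replicate 1 and 1 without chow replicate 2 or 4. Acvr1c, the activin receptor ALK7 that restrains lipolysis in adipocytes (chr2:58119864-58210306), was at 19.8, 12.2, 12.4 and 8.81 CPM on chow and 22.2, 54.7, 48.2 and 61.9 CPM on HFD. The lowest HFD value exceeded the highest chow value by a small margin, and the other 3 HFD libraries lay well above. It rose by 1.81 ± 0.42 on the log2 scale (adjusted p = 0.0049) and stayed called without any single library; its GC-corrected adjusted p was 0.0527. Car3, a carbonic anhydrase abundant in fat and muscle, reached 11364, 4875, 7959.9 and 6172 CPM on chow and 20624, 14909, 14559 and 18617 CPM on HFD. Its log2 fold change was 1.18 ± 0.31 (adjusted p = 0.0115, GC-corrected 0.126), and the call was lost without any of chow replicates 2 and 4 (highest adjusted p = 0.0678). Pparg, the master regulator of adipocyte differentiation, did not pass the test (0.17 ± 0.25, adjusted p = 0.668).

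Leptin (Lep, the satiety hormone that rises with fat mass) was at 3853, 275, 537 and 1040.2 CPM on chow and 2978, 1127, 1627 and 4104 CPM on HFD. Chow replicate 1 exceeded 3 of the 4 HFD libraries, while the other 3 chow libraries were lower than every HFD library. The log2 fold change was 0.79 ± 0.64 (adjusted p = 0.407), and without chow replicate 1 it was 1.99 (adjusted p = 0.021). Adipoq was at 0.79 ± 0.33 (adjusted p = 0.0962) in all libraries and 1.18 (adjusted p = 0.0111) without chow replicate 1. Mest, an imprinted gene linked to adipocyte enlargement, was at 1072, 23, 57.9 and 41.4 CPM on chow and 537, 155, 120.4 and 759 CPM on HFD and was not called (adjusted p = 0.775). Here chow replicate 1 was the highest of all 8 libraries, and without it the log2 fold change was 3.27 (adjusted p = 0.00347). Peg3, another imprinted gene, was at 38, 2.65, 6.93 and 2.3 CPM on chow and 4.84, 90.7, 18.1 and 19 CPM on HFD (log2 fold change 1.41 ± 0.94, adjusted p = 0.309; without chow replicate 1, 3.06 and 0.0307). Tph2, a tryptophan hydroxylase of serotonin synthesis, was at 18.5, 0.183, 0.17 and 0.443 CPM on chow and 2.84, 0.571, 1.68 and 19.8 CPM on HFD; it was not called (adjusted p = 0.836) except without chow replicate 1 (4.52, adjusted p = 0.00472). In all, 1 of 19 genes of adipokines and fat expansion was called higher (Cav1), 5.26% against 9.65% of all genes. The count was 11 without chow replicate 1, where 15.2% of all genes were called higher. It was 0 without chow replicates 2, 3 or 4 or HFD replicates 1 or 4. Of 19 imprinted genes 3 were called higher (Plagl1, Grb10 and Slc38a4), 15.8% against 9.65% of all genes. Their count was 12 without chow replicate 1, 2 without HFD replicate 1, 1 without HFD replicate 2 or 4 and 0 without chow replicate 2, 3 or 4. GC-corrected, edgeR called 0 genes of either list, with 6 higher in each at an unadjusted p under 0.05.

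In insulin signalling, 5 of 22 genes were called higher (Pdpk1, Foxo1, Gsk3b, Grb10 and Igf1) and 1 lower (Akt1), against 9.65% and 6.86% of all genes. Pdpk1, the kinase PDK1 that activates Akt (chr17:24210647-24287891), was at 45.3, 41.5, 46.1 and 39.2 CPM on chow and 58, 80.0, 76.4 and 83.7 CPM on HFD, and every HFD library exceeded every chow library. It rose by 0.79 ± 0.13 on the log2 scale (adjusted p = 0.000228), stayed called without any single library and was the 1 gene of the list called after GC correction (0.54, adjusted p = 0.00992). Akt1 itself was at 103, 104, 107 and 96.6 CPM on chow and 79.7, 83.2, 82.2 and 83.9 CPM on HFD, a difference of -0.32 ± 0.077 (adjusted p = 0.0071) that was small but did not overlap between groups; after GC correction its sign turned (0.20, adjusted p = 0.309). Igf1, the insulin-like growth factor that fat also secretes, was at 129, 63.2, 64.7 and 64.7 CPM on chow and 197, 147, 124 and 218 CPM on HFD, a log2 fold change of 1.09 ± 0.27 (adjusted p = 0.00874, GC-corrected 0.162). The list's count higher was 2 without chow replicate 2, 3 or 4 or HFD replicate 4, and the count lower was 3 without chow replicate 1. Of 14 lipolysis genes 2 were called higher, 14.3% against 9.65% of all genes: Pde3b and Prkar2b, which both act in cyclic AMP signalling. The count was 1 without chow replicate 2 or 3 or HFD replicate 1 or 4 and 0 without chow replicate 4, and GC-corrected edgeR called 0 (3 higher at an unadjusted p under 0.05). Pde3b, the phosphodiesterase by which insulin restrains lipolysis, was at 213, 203, 204 and 158 CPM on chow and 352, 435, 404 and 387 CPM on HFD. Its groups did not overlap. The log2 fold change of Pde3b was 1.02 ± 0.27 (adjusted p = 0.0109; without chow replicate 4, 0.0557; GC-corrected, 0.106). For Prkar2b, a regulatory subunit of protein kinase A, it was 0.99 ± 0.30 (adjusted p = 0.028, GC-corrected 0.163), with the call lost without any of chow replicates 2, 3 and 4 and HFD replicates 1 and 4 (highest adjusted p = 0.107).

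Of 30 tested macrophage genes 9 were called higher on HFD and 0 lower (Emr1, Mrc1, Cd163, Ccr2, Fcgr3, Itgam, Msr1, Lyve1 and F13a1), 30% against 9.65% of all genes, and 23 had a positive log2 fold change (median 0.442). With the covariates 8 were called; GC-corrected, edgeR called 0, with 13 higher and 1 lower at an unadjusted p under 0.05. The count was 2 without chow replicate 2, 3 without chow replicate 4 and 6 without HFD replicate 3 or 4. Mrc1, Cd163, Lyve1 and F13a1 are known as markers of resident tissue macrophages. Emr1, the F4/80 antigen (chr17:57498109-57622952), was at 46.8, 24.9, 38.2 and 30.9 CPM on chow and 73.6, 69.5, 71.3 and 81.9 CPM on HFD, without overlap. It rose by 1.07 ± 0.29 on the log2 scale (adjusted p = 0.0139, GC-corrected 0.0779), with the call lost without any of chow replicates 2 and 4 (highest adjusted p = 0.078). Cd68 and Csf1r, which also mark macrophages, are not among the 9 called. Cd68 was at 48.8, 32.9, 42 and 26.5 CPM on chow and 56.2, 36.4, 45.3 and 44.4 CPM on HFD, with overlap. Csf1r was at 167, 120, 177 and 117 CPM on chow and 182, 192, 214 and 191 CPM on HFD, without overlap. Mrc1, the mannose receptor CD206 (chr2:14151041-14253684), was at 101, 50.1, 87.9 and 54.6 CPM on chow and 138, 201, 216 and 198 CPM on HFD, also without overlap, with a log2 fold change of 1.36 ± 0.33 (adjusted p = 0.00716, GC-corrected 0.075), and stayed called without any single library. F13a1, coagulation factor XIII A chain made by macrophages, was at 158, 56.3, 104 and 77.8 CPM on chow and 245, 267, 276 and 270.2 CPM on HFD, with a log2 fold change of 1.42 ± 0.36 (adjusted p = 0.00963; without chow replicate 2, 0.055; GC-corrected, 0.075). Ccr2, the receptor by which monocytes follow CCL2, was at 31.9, 14.9, 17.1 and 21.3 CPM on chow and 27.5, 30.9, 51.8 and 67.7 CPM on HFD, where chow replicate 1 exceeded HFD replicates 1 and 2. Its log2 fold change was 1.06 ± 0.24 (adjusted p = 0.0042, GC-corrected 0.155).

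Of 21 genes of lipid-associated macrophages, the foam cell-like state known from obese fat, edgeR and DESeq2 each called 0 (1 lower at an unadjusted p under 0.05 in edgeR). The median log2 fold change was 0.211. Without chow replicate 1, 5 were called higher and the median was 0.748. In the same fit 8 macrophage genes were called higher and their median was 0.49. Whether the lists differ was not tested. Among 14 granulocyte and mast cell genes, 3 mast cell proteases were called higher (Cpa3, Cma1 and Tpsb2), 21.4% against 9.65% of all genes, and 0 lower. The list was mixed, with 8 members above 0, a range of -0.959 to 1.34 and a median of 0.247 (GC-corrected -0.193). DESeq2 called 4 higher and 1 lower. EdgeR called 2 lower without chow replicate 1 and 1 without HFD replicate 3. With the covariates 2 were called higher, and GC-corrected 1 (Tpsb2). The list's count higher was 1 without any of chow replicates 2, 3 and 4 and HFD replicates 1 and 4. Cpa3, mast cell carboxypeptidase, was at 15.6, 9.18, 15.8 and 12 CPM on chow and 44.7, 29.7, 26.1 and 32.5 CPM on HFD, all HFD libraries above all chow libraries, with a log2 fold change of 1.34 ± 0.27 (adjusted p = 0.00188, GC-corrected 0.0737), and stayed called without any single library. Of 22 chemokine genes, Ccl6 and Ccl9 were called higher and Cx3cl1 lower, 13.6% either way against 16.5% of all genes. GC-corrected, edgeR called 0 (3 higher and 2 lower at an unadjusted p under 0.05). The count higher was 5 without chow replicate 1, 1 without chow replicate 3 or HFD replicate 1, 3 or 4 and 0 without chow replicate 2 or 4, and the count lower was 0 without chow replicate 2 or 3 or HFD replicate 4. Ccl9, a chemokine of myeloid cells, was at 118, 37.7, 63.7 and 46.9 CPM on chow and 254, 106, 171 and 179.9 CPM on HFD, a log2 fold change of 1.42 ± 0.39 (adjusted p = 0.0147), with the call lost without any of chow replicates 2 and 4 (highest adjusted p = 0.0779). Of the 33 lymphocyte and lymph node genes all had negative log2 fold changes (median -2.13), as had all 10 MHC class II genes (median -0.647), and of 21 fast muscle genes 18 had positive ones (median 3.07). Of these 3 lists edgeR and DESeq2 called 0 genes, with 0 at an unadjusted p under 0.05 in edgeR, while without chow replicate 1 edgeR called 6 fast muscle genes higher.

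**Figure D4:**
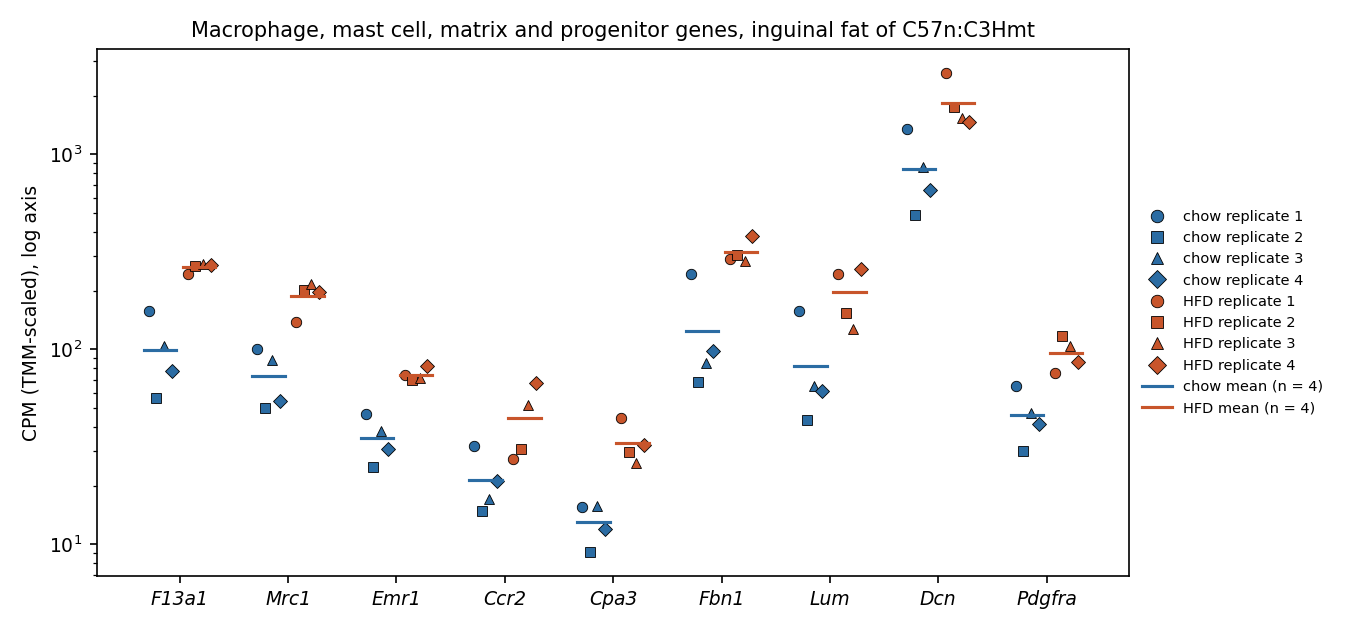
CPM (TMM-scaled, log axis) of macrophage (F13a1, Mrc1, Emr1, Ccr2), mast cell (Cpa3), matrix (Fbn1, Lum, Dcn) and progenitor (Pdgfra) genes in each chow (blue) and HFD (orange) library, with symbols for replicates and lines for group means (n = 4). Chow replicate 1 (circle) is the highest chow library for F13a1, Mrc1, Emr1, Ccr2, Fbn1, Lum, Dcn and Pdgfra, as for Fbn1 at 243 CPM against 67.7 to 98.5 in the other chow libraries and 283 to 383 on HFD.

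Of 33 matrix remodelling genes 7 were called higher (Plod2, Postn, Fn1, Fbn1, Lum, Dcn and Vcan) and 1 lower (Tgfb1), against 9.65% and 6.86% of all genes, and 30 had a positive log2 fold change (median 0.573). The summed level of the list was 16953 CPM in chow replicate 1, 4458 to 6430.0 in the other chow libraries and 10360 to 16901 on HFD, so the groups overlapped through chow replicate 1. GC-corrected, 2 were called higher (Fn1 and Fbn1), and with the covariates 9. The count higher was 20 without chow replicate 1, 1 without chow replicate 3 or HFD replicate 4 and 0 without chow replicate 2 or 4, and the count lower was 0 without chow replicate 3 or HFD replicate 2. Fbn1, fibrillin of elastic microfibrils (chr2:125126330-125333729), was at 243, 67.7, 85.6 and 98.5 CPM on chow and 292, 306, 283 and 383 CPM on HFD. It rose by 1.35 ± 0.39 on the log2 scale (adjusted p = 0.0196, GC-corrected 1.49 with 0.0366), with the call lost without any of chow replicates 2, 3 and 4 and HFD replicate 4 (highest adjusted p = 0.0958). Dcn, the collagen-binding proteoglycan decorin, reached 1352, 489.8, 866 and 661 CPM on chow and 2613, 1752, 1547 and 1464 CPM on HFD. The groups did not overlap, and its log2 fold change was 1.13 ± 0.30 (adjusted p = 0.0128, GC-corrected 0.203), a call lost without any of chow replicates 2 and 4 (highest adjusted p = 0.0758). Tgfb1, the profibrotic cytokine, went the other way, at 45.7, 70.6, 77 and 63.4 CPM on chow and 36, 24.6, 40.2 and 37.8 CPM on HFD (-0.89 ± 0.25, adjusted p = 0.0164, GC-corrected 0.356; without chow replicate 3, 0.0578; without HFD replicate 2, 0.056). Of 17 collagen genes 16 had positive values and 2 were called higher (Col1a2 and Col3a1), or 11.8% against 9.65% of all genes; 10 were called without chow replicate 1 and 0 without any 1 of the other 7 libraries. GC-corrected, edgeR called 0 collagen genes (8 higher at an unadjusted p under 0.05). Col1a2, of the fibrillar type I collagen, was at 1369.8, 516, 815 and 551 CPM on chow and 1622, 1456, 1374 and 1524 CPM on HFD (0.88 ± 0.28, adjusted p = 0.0359; highest without a library, 0.166). Of 17 progenitor and fibroblast genes 3 were called higher (Pdgfra, Cd34 and F3), 17.6% against 9.65% of all genes. The count was 5 without chow replicate 1, 1 without chow replicate 4 and 1 GC-corrected (Pdgfra). Pdgfra, the growth factor receptor that marks adipocyte progenitors (chr5:75548316-75594229), was at 65, 30.2, 47.4 and 41.7 CPM on chow and 75.7, 117, 104 and 85.9 CPM on HFD, without overlap. Its log2 fold change was 1.05 ± 0.25 (adjusted p = 0.00616, GC-corrected 0.92 with 0.0292), and it stayed called without any single library.

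Of 29 lysosome and V-ATPase genes 7 were called higher and 0 lower (Atp6v1a, Atp6v1c1, Atp6v1h, Atp6ap1, Lamp1, Lamp2 and Ctsc), 24.1% against 9.65% of all genes called higher, and 7 were with the covariates. GC-corrected, edgeR called 0 (5 higher and 1 lower at an unadjusted p under 0.05). The count higher was 1 without chow replicate 2 or 4, 2 without HFD replicate 4, 3 without chow replicate 3 and 4 without HFD replicate 1. Lamp2, a lysosomal membrane protein (chrX:35754534-35809631), was at 288, 165, 186 and 179 CPM on chow and 481, 363, 374 and 448 CPM on HFD, without overlap; it rose by 1.03 ± 0.20 on the log2 scale (adjusted p = 0.00155, GC-corrected 0.128) and stayed called without any single library. Among 26 interferon genes 5 were called lower (Irf7, Stat2, Mx1, Mx2 and Oasl1) and 1 higher (Ifih1), 23.1% either way against 16.5% of all genes. GC-corrected, 2 were called lower (Stat2 and Mx2). The summed level of this list was 978 to 1199 CPM in the 3 chow libraries with lymph node RNA and 751 in chow replicate 1. It was 981 in HFD replicate 3, which also held lymph node RNA, and 736 to 856 in the other HFD libraries. With the lymphocyte and muscle covariates 3 were called lower. The part of lymph node RNA in these values was not tested. The count lower was 1 without chow replicate 3, 2 without HFD replicate 4 and 3 without chow replicate 2 or HFD replicate 2, and the count higher was 0 without any of chow replicates 2, 3 and 4 and HFD replicates 2, 3 and 4. Irf7, the regulator of type I interferon, was at 39.2, 64.2, 71.6 and 48.4 CPM on chow and 26.1, 30.6, 38.8 and 28.9 CPM on HFD (-0.84 ± 0.22, adjusted p = 0.0116, GC-corrected 0.125; without chow replicate 3, 0.0535).

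Of 24 endothelial genes Angpt1 and Lyve1 were called higher and Tie1, Eng and Egfl7 lower, 20.8% either way against 16.5% of all genes. GC-corrected, edgeR called 0 (2 higher and 2 lower at an unadjusted p under 0.05). The count higher was 1 without chow replicate 2 or 4 or HFD replicate 3, and the count lower was 1 without HFD replicate 1. Egfl7, a secreted endothelial protein, was at 77.7, 65.3, 63.7 and 70.8 CPM on chow and 53.9, 40.3, 36.9 and 37 CPM on HFD, without overlap (-0.72 ± 0.17, adjusted p = 0.0062, GC-corrected 0.321). Clock, the circadian transcription factor, was the 1 of 21 clock genes called by edgeR (2 were higher and 3 lower at an unadjusted p under 0.05, and DESeq2 called 1 higher and 3 lower), at 45.3, 34.6, 22.4 and 38.6 CPM on chow and 64.7, 87.7, 85.6 and 106 CPM on HFD (1.29 ± 0.28, adjusted p = 0.0035, GC-corrected 0.0581). Among 24 stress response genes Psat1, Xbp1 and Dnajb9 were called higher, 12.5% against 9.65% of all genes. The count higher was 6 without chow replicate 1 and 1 without chow replicate 2 or 4 or HFD replicate 4. GC-corrected, edgeR called 0 (4 higher and 2 lower at an unadjusted p under 0.05). Psat1, of serine synthesis, was at 151, 47.6, 63.4 and 52.6 CPM on chow and 197, 103, 134 and 198 CPM on HFD (1.01 ± 0.29, adjusted p = 0.0176, GC-corrected 0.0772), with the call lost without any of chow replicates 2, 3 and 4 and HFD replicate 4 (highest adjusted p = 0.0999). Of 32 antioxidant genes Nqo1 was called higher and Keap1, the repressor of Nrf2, lower (-0.45 ± 0.11, adjusted p = 0.00693; GC-corrected -0.0047, 0.98). The share of this list called either way was 6.25% against 16.5% of all genes. GC-corrected, edgeR called 0 of the list (3 higher at an unadjusted p under 0.05). The count higher was 6 without chow replicate 1, 4 without HFD replicate 2, 2 without HFD replicate 3 and 0 without chow replicate 2, 3 or 4 or HFD replicate 4, and the count lower was 2 without chow replicate 1 or HFD replicate 3. Red cell genes were called lower, 3 of 5 (Hba-a2, Hbb-b1 and Alas2), 60% against 6.86% of all genes. The same 3 were called GC-corrected and 0 were called without chow replicate 3. Hbb-b1 was at 8404, 1154, 40149 and 1064 CPM on chow and 2621, 572, 734 and 1084 CPM on HFD, and its log2 fold change went from -3.34 ± 0.93 (adjusted p = 0.0158) to -1.50 (0.215) without that library. Of 28 cell cycle genes edgeR and DESeq2 called 0, with 0 at an unadjusted p under 0.05 in edgeR and a median log2 fold change of -0.293.

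**Figure D5:**
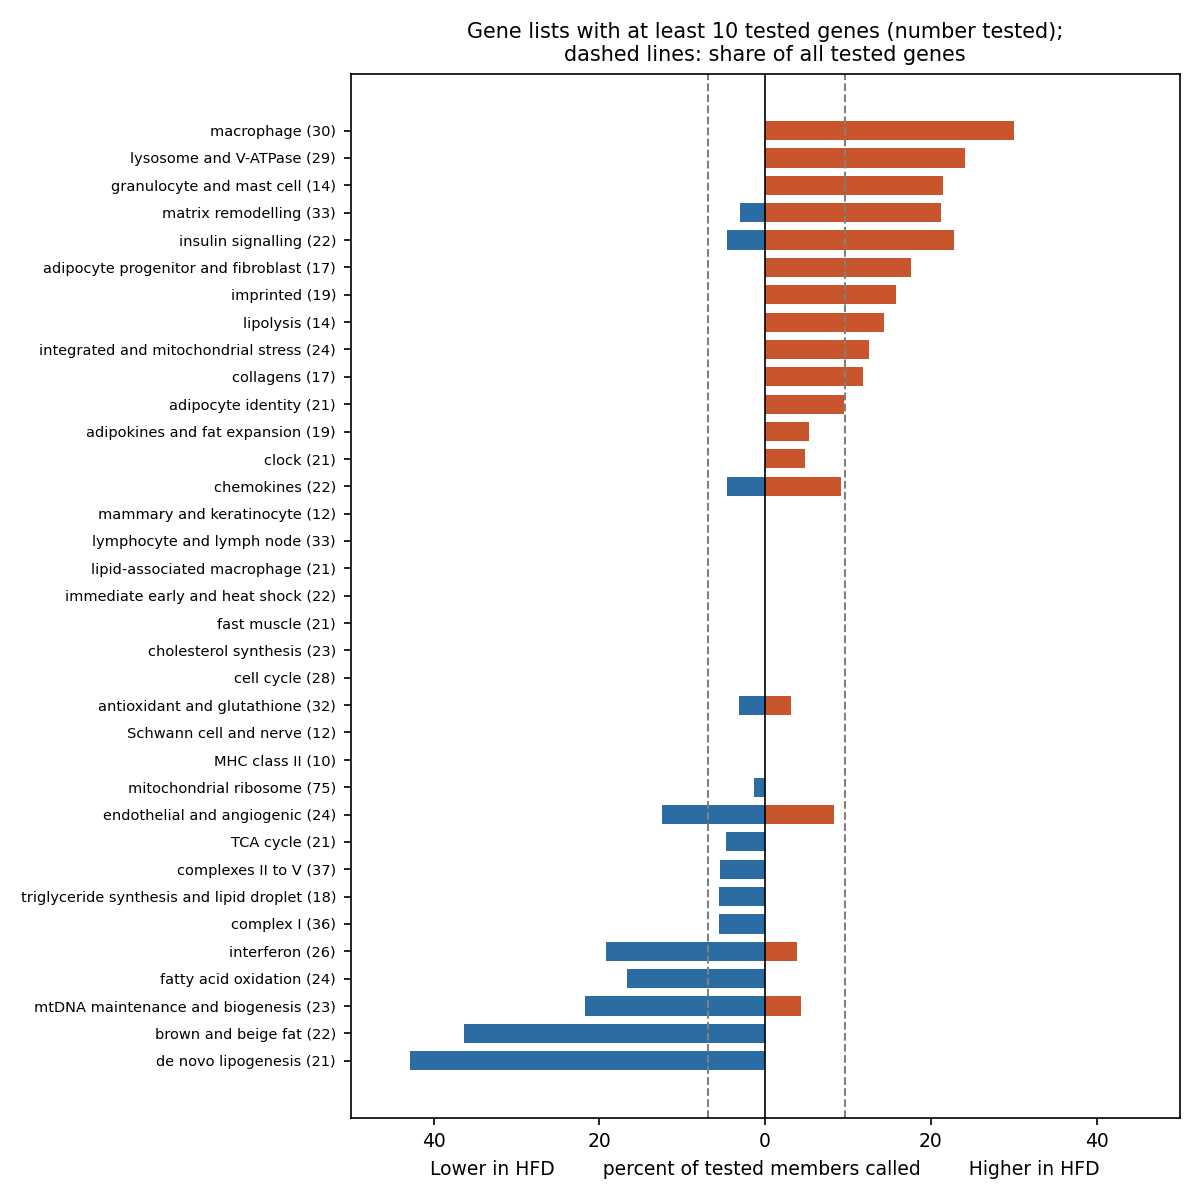
Share of tested members called higher (orange, right) and lower (blue, left) on HFD in each gene list with at least 10 tested genes, in percent, with the number tested in parentheses. Dashed lines mark the 9.65% and 6.86% of all tested genes called higher and lower; macrophage genes reach 30% higher and de novo lipogenesis genes 42.9% lower.

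By size of change among called genes whose groups did not overlap and whose higher mean was at least 1 CPM, 10 rises and 10 falls were taken. The rises were Fgg, Slc38a4, Asb12, Arhgap20, AK163067, Adcy2, Cacna2d1, Amd2, Ncam2 and B230358A15Rik. Fgg, the fibrinogen gamma chain, had 3 counts over the chow libraries and 239 over the HFD libraries, 84.5 times as many per depth with a 95% exact interval of 28.6 to 412 that covers counting error only; it was at 0.137, 0, 0 and 0 CPM on chow and 4.96, 0.285, 5.26 and 0.352 CPM on HFD. Its call (adjusted p = 0.0377, GC-corrected 0.114) was lost without any of chow replicates 2, 3 and 4 and HFD replicates 1 and 3 (highest adjusted p = 0.111). Arhgap20 (chr9:51573442-51661961) was at 5.61, 2.01, 2.46 and 2.97 CPM on chow and 7.98, 17.7, 16.6 and 16.3 CPM on HFD; it rose by 2.17 ± 0.51 on the log2 scale (adjusted p = 0.00555, GC-corrected 0.0366) and stayed called without any single library. Adcy2, an adenylyl cyclase, was at 1.69, 0.731, 0.85 and 0.753 CPM on chow and 2.72, 7.37, 2.59 and 2.01 CPM on HFD (1.86 ± 0.54, adjusted p = 0.0195, GC-corrected 0.0458), and lost its call without any of chow replicates 2, 3 and 4 and HFD replicate 2 (highest adjusted p = 0.104). Slc38a4, an imprinted amino acid transporter, was at 2.51, 2.97, 3.4 and 1.99 CPM on chow and 10.3, 44.7, 17.9 and 3.97 CPM on HFD (2.82 ± 0.88, adjusted p = 0.0288), and its adjusted p was 0.197 with the lymphocyte and muscle covariates and at most 0.123 without single libraries, with the call lost without any of chow replicates 2, 3 and 4 and HFD replicate 2.

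The falls were chat, AK010122, Pdzk1ip1, DQ072390, DQ072386, Bzrap1, AK138343, Ufd2, Hapln4 and AK137190, as spelled in the tables, of which 7 have no G+C value here, namely all but Pdzk1ip1, Bzrap1 and Hapln4. The gene listed as chat was at 0 in all 4 HFD libraries and at 0.274, 1.87, 2.29 and 0.266 CPM on chow, at least 33.6-fold lower on HFD against a floor of 3 counts over the HFD group (adjusted p = 0.00202). AK138343 was at 6.93, 3.2, 4.67 and 4.56 CPM on chow and 0.302, 0.713, 0.219 and 0.402 CPM on HFD, a log2 fold change of -3.55 ± 0.48 (adjusted p = 5.81e-05) that stayed called without any single library. Hapln4, a hyaluronan link protein (chr8:72607428-72614761), was at 0.73, 5.75, 0.637 and 4.83 CPM on chow and 0.363, 0.285, 0.584 and 0.252 CPM on HFD, where chow replicates 2 and 4 stood high as for Ucp1 (-2.97 ± 0.65, adjusted p = 0.00342, GC-corrected 0.029). Pdzk1ip1, a small membrane protein first known from kidney, was at 0.137, 1.78, 0.765 and 2.48 CPM on chow and 0.0605, 0, 0.073 and 0.0503 CPM on HFD, again highest in chow replicates 2 and 4 (-4.63 ± 0.97, adjusted p = 0.00245, GC-corrected 0.016).

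The response of the exchange line was set against that of C57 wt, in which 2812 genes (16.7%) were called for diet in the same fit. For the difference of the responses edgeR called 0 of 16884 genes (0%), with 375 at an unadjusted p under 0.05 and a lowest adjusted p of 1, and DESeq2 called 7, 3 higher and 4 lower. The responses of Ucp1 were -7.47 in C57n:C3Hmt and -4.47 in C57 wt, a difference of -3.00 ± 1.77 (unadjusted p = 0.103, adjusted p = 1). For Acly they were -2.21 and -2.48, a difference of 0.27 ± 0.75 (adjusted p = 1), and for Emr1 1.07 and 1.05, a difference of 0.027 ± 0.41 (adjusted p = 1). The responses of Tph2 were 0.36 and 5.13 (difference -4.76 ± 1.67, unadjusted p = 0.00868, adjusted p = 1). Lep had 0.79 and 1.98 (difference -1.19 ± 0.90, adjusted p = 1). The standard errors of these differences were 0.41 for Emr1, 0.75 for Acly, 0.90 for Lep and 1.77 for Ucp1. Without chow replicate 1, the responses in C57n:C3Hmt were 4.52 for Tph2 and 1.99 for Lep, beside 5.13 and 1.98 in C57 wt. With that library included, a difference well above its standard error still went uncalled for Tph2 (-4.76 ± 1.67). Larger differences than these standard errors could thus be missed.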

How the data were processed

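The authors deposited RSEM expected counts per gene, per the submitters' processing notes (which name mm9, RSEM without a version, and DESeq2 1.10.1), with chow and HFD in separate tables of 22423 and 21983 genes. The 21625 shared genes were used. The library quality values, in percent and bases, were deposited by the authors, per the file headers. Expected counts were rounded, and all 30 inguinal libraries in 8 groups were fitted with edgeR 4.0.16 in R 4.3.3 (TMM; filterByExpr with minimum count 10, minimum total 15 and proportion 70%; two-sided quasi-likelihood F test, adjusted over all genes). Standard errors are the absolute log2 fold change divided by the square root of the F statistic. DESeq2 1.42.0 was an alternative. Exonic G+C content and positions came from a mouse annotation on mm9, with G+C values for 85.4% of tested genes. Animal numbers differ between libraries. Scripts were tested on simulated data. Without a G+C trend, 86% of simulated 4-fold and 8% of 2-fold changes were called, with 3 false calls. With a simulated G+C trend, false calls numbered 99 uncorrected and 5 corrected, and 13.8% of 2-fold changes were called after correction. Members, lists and the rule for named genes (the 10 largest non-overlapping rises and falls at 1 CPM or more, up to 4 called genes per list, and a fixed set) were chosen with earlier results of these data known. Alternatives covered tools, size factors, filters, libraries fitted, a term for the HFD runs, G+C correction, covariates and leaving out each library.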

Additional observations from a re-analysis of the deposited data

Results flagged for a closer look

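Within a group of 4 libraries, 21 values stood far from the other 3, out of 218 groups examined. The rule flags about 1 in 20 groups of independent normal values. These are CPM of chosen genes in the same libraries, so the count cannot be set against that rate. Chow replicate 1 was the library in 10 of them and HFD replicate 2 in 7. Chow replicate 1 was above the other chow libraries for Mest at 1072 CPM (others 23.0 to 57.9), Peg3 at 38.05 (2.30 to 6.93), Tph2 at 18.52 (0.17 to 0.443), Adipoq at 4185 (1664 to 2094), Prkar2b at 829.4, Igf1 at 128.6, Psat1 at 150.9, Atp6ap1 at 181, Adcy2 at 1.688 and Fgg at 0.1369 CPM (others 0). HFD replicate 2, the library with the most muscle RNA, was above the other HFD libraries for Cacna2d1 at 33.24 CPM (others 11.4 to 11.9), Cpt1b at 49.99 (11 to 16.5), Mlxipl at 72.29 (24.6 to 31.6), Peg3 at 90.7 (4.84 to 18.97), Ucp1 at 8.323, Adcy2 at 7.372 and Asb12 at 7.752. HFD replicate 1 was below the others for Arhgap20 at 7.98 CPM and above them for the alpha globin Hba-a2 at 2122. HFD replicate 3 was high for Ncam2 at 3.431 and HFD replicate 4 for Tph2 at 19.77 CPM.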

How the results depend on the processing

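The count of 2789 called genes was 822 at 2-fold or more, 0 when only the 8 libraries were fitted with edgeR (lowest adjusted p 0.052, 3849 at an unadjusted p under 0.05; DESeq2 on the same 8 libraries called 2172), 376 GC-corrected, 961 GC-corrected with the lymphocyte and fast muscle covariates, and 1398 to 4233 without single libraries. It was 3526 with DESeq2, 2714 with RLE size factors, 2348 with no filter, 4100 with the HFD run term, 3264 with the covariates and 2677 over genes with a G+C value, all within 1.5 times; the share called higher went from 58.4% to 53.2% with RLE, which moved the median gene by -0.032 (log2), to 49.3% with no filter, and to 45.5%, 44.7% and 49% without chow replicate 2, chow replicate 4 and HFD replicate 3. With no filter, GC-corrected (167 higher, 209 lower) and without any of these 3 libraries, more genes were called lower than higher. The HFD run term covers only differences among the HFD runs, so it cannot adjust the diet contrast for run. The GC-corrected fit with covariates, the fit over genes with a G+C value only and DESeq2 on 8 libraries were chosen after the data were seen. The difference from C57 wt gave 0 calls in every edgeR fit, those without single libraries included, and 7 with DESeq2. Of 97 called genes among the 109 named, 38 stayed called without each of the 8 libraries in turn. Akt1 turned to 0.20 GC-corrected and 0.32 with covariates too, where Dnajb9 turned to -0.0186 and Keap1 to 0.0429; the cause was not tested. Depth was 20054370 to 25748788 counts, and intervals cover counting error only. No paired analysis was possible because the animals on chow and HFD carry different numbers and replicate numbers here follow accession order.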

Other observations

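Several lists held 1 or 0 called genes. Of 18 genes of triglyceride synthesis and lipid droplets edgeR called 1 lower (Cidea, which is also in the thermogenic list, and the 1 called GC-corrected) and DESeq2 2. Of 22 immediate early and heat shock genes edgeR and DESeq2 each called 0, with 2 higher at an unadjusted p under 0.05, while edgeR called 3 higher without chow replicate 3. Atp2a2, a calcium pump of slow muscle and other tissues, was the 1 of 8 slow muscle genes called, at 139, 128, 119.9 and 136 CPM on chow and 149, 186, 168 and 201 CPM on HFD (0.43 ± 0.14, adjusted p = 0.0337, GC-corrected 0.115). It lost its call without any of chow replicates 2, 3 and 4 and HFD replicates 2, 3 and 4 (highest adjusted p = 0.155). The Y-linked Uty, a histone demethylase homologue, was at 16.4, 14.9, 13.6 and 15.2 CPM on chow and 21.3, 31, 28.4 and 31 CPM on HFD, without overlap (0.89 ± 0.16, adjusted p = 0.000743, GC-corrected 0.151), and was the 1 of 4 Y-linked genes called by edgeR, while DESeq2 called 2 higher.

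HFD replicate 1 stood apart in single genes that were chosen after their values were seen. C4a, a complement component with a near-identical paralog, was at 6.25, 4.16, 2.34 and 2.92 CPM on chow and 333, 2.52, 3.36 and 2.92 CPM on HFD, so that its call (adjusted p = 0.00934) rests on that library, with an adjusted p of 0.615 without it. The gene listed as Rab22B was at 0.0912, 0, 0 and 0 CPM on chow and 50.1, 0, 0 and 0 CPM on HFD, with detection on HFD in replicate 1 alone. Pbrm1, a chromatin remodelling subunit, went the other way, at 10.3, 8.95, 8.84 and 7.79 CPM on chow and 1.03, 37.8, 40.9 and 47.1 CPM on HFD, as did Cpeb4, an RNA-binding protein, at 6.02, 6.35, 3.78 and 4.47 CPM on chow and 0.725, 31.4, 27.7 and 25.7 CPM on HFD. In both genes HFD replicate 1 was lower than every chow library and the other 3 HFD libraries were higher than every chow library. HFD replicate 1 also had the lowest G+C content of aligned bases, 46.39% against 47.73 to 49.98% in the other 7 libraries; its part in these values was not tested.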
